A study of Dunaliella tertiolecta UTEX 'LB 999' with 2 samples.

Results

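Messenger RNA of 5 listed contigs for the moving machinery of the flagellum was compared between 8 h and 4 h after a rise in light in Dunaliella tertiolecta, a green alga that swims with a pair of flagella. The contigs were taken from 234 that the authors listed as different between these times, 134 of them as higher and 100 as lower at 8 h. Contigs named RIB72, ODA6 or IFT80 were taken, with any other whose protein description held the words dynein, radial spoke, intraflagellar or tubulin. Contigs with an FAP number as their name, kinesins and microtubule-associated proteins were left out. The rule gave RIB72, ODA6, IFT80, PF2 and ODA13. No listed contig carried the words radial spoke or tubulin, and FAP32, described as intraflagellar transport protein 46, met the wording but was left out by its name. Transcripts outside the deposited lists were not analysed here.

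Both samples came from strain UTEX LB-999, grown in chemostat culture at 25 °C in medium with 0.5 M NaCl. The photon flux was raised to 400 µmol m-2 s-1, against 40 µmol m-2 s-1 before, once the culture was steady. RNA taken after 8 h and after 4 h gave 1 library each, and no sample from before the shift was used here. The 8 h library corresponds to 674129 reads and the 4 h library to 556037. With 1 library per time there was no replicate check, and nothing below was tested. The contigs were in the lists because the authors had found them different, so folds and intervals describe selected values. No fold of 8 h over 4 h was under 2.00 in the higher list or above 0.495 in the lower list. Part of the distance of each fold from 1 thus came with the listing. Intervals are 95% exact intervals on reads and cover counting error only. The headings of the RPKM columns name neither time, and the mean taken as 8 h is the numerator of the ratio the authors marked as 8 against 4.

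The core of a flagellum, the axoneme, is a ring of doublet microtubules around a central pair. Dynein motors fixed to one doublet push on the next, a regulatory complex between doublets turns that sliding into bending, and the ribbon is a set of stable protofilaments with proteins bound to them. Intraflagellar transport carries building blocks along the doublets to the growing tip and returns turnover products to the cell body. Most of these roles were worked out in Chlamydomonas reinhardtii, the alga whose best-matching proteins gave these contigs their names, and they are known here by that likeness alone.

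All 5 contigs were listed as higher in the 8 h library. Among the 234 listed contigs 57.3% were listed as higher. The folds of the 5 ran from 3.09 for ODA13 to 4.40 for IFT80, with a median of 3.51, against a median of 2.75 over the 134 contigs of the higher list. Summed over the 5 contigs, the authors' means came to 85.6 RPKM (reads scaled to contig length and to the reads of the library) at 8 h and 25.0 RPKM at 4 h. Together they held 125 reads at 8 h, or 18.5 of every 100000 in the library, and 30 reads at 4 h, or 5.40 of every 100000. In a culture sampled in bulk, more transcript per cell and more cells that carry the transcript cannot be told apart.

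RIB72 is a protein of the ribbon, bound to the wall of the doublet. Its contig of 2410 bases, best matched to the Chlamydomonas protein Cre02.g091700.t1.1, had an authors' mean of 21.5 RPKM at 8 h on 35 reads and 5.97 RPKM at 4 h on 8 reads. The 8 h level was 3.61-fold the 4 h level (interval 1.64 to 9.005). The exact Poisson interval of the level was 15.0 to 30.0 RPKM at 8 h and 2.58 to 11.8 RPKM at 4 h, and these did not overlap. It had the highest RPKM of the 5 at 8 h.

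The outer dynein arm, the row of motors that sets the beat frequency, was represented by ODA6 and ODA13. ODA6 is an intermediate chain that holds the arm together and is needed to build it. Its contig, the longest of the 5 at 3138 bases and matched to Cre12.g506000.t1.1, had 19.9 RPKM at 8 h on 42 reads and 6.30 RPKM at 4 h on 11 reads. That is a 3.15-fold difference (1.59 to 6.78), the narrowest interval among the 5 contigs, and the Poisson intervals of its levels, 14.3 to 26.8 RPKM at 8 h and 3.15 to 11.3 RPKM at 4 h, were also apart.

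ODA13 is a light chain of the same arm. Its contig of 1066 bases was matched to Cre03.g187200.t1.1, described as a dynein light chain type 1 family protein. It had 20.9 RPKM at 8 h on 15 reads and 6.75 RPKM at 4 h on 4 reads. Its fold was 3.09 with an interval of 0.985 to 12.8, which reached equal levels, and its Poisson intervals overlapped, at 11.7 to 34.4 RPKM at 8 h and 1.84 to 17.3 RPKM at 4 h. On this short contig a single read was worth 1.39 RPKM at 8 h and 1.69 RPKM at 4 h, so a similar level rested on fewer reads than in ODA6.

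Levels per length of the outer arm chains could not be told apart in either library. The RPKM of ODA13 was 1.05 times that of ODA6 at 8 h (0.542 to 1.94) and 1.07 times at 4 h (0.249 to 3.61). Their summed level was 40.7 RPKM at 8 h and 13.1 RPKM at 4 h. The fold of ODA13 was 0.982 times that of ODA6, with an interval of 0.241 to 4.88, too wide to show whether they changed alike.

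PF2 belongs to the dynein regulatory complex, which links neighbouring doublets and controls the inner arm motors. The contig of 2100 bases, matched to Cre11.g476850.t1.1, had 12.0 RPKM at 8 h on 17 reads and 3.43 RPKM at 4 h on 4 reads. Its 3.51-fold difference had an interval of 1.14 to 14.3. The Poisson intervals of the levels overlapped, at 7.00 to 19.2 RPKM at 8 h and 0.933 to 8.77 RPKM at 4 h.

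IFT80 is a subunit of the train complex that carries cargo outward in intraflagellar transport. The deposited description calls it a WD-40 repeat family protein, after its fold, and the match was to Cre03.g204150.t1.1. Its contig of 2099 bases had 11.3 RPKM at 8 h on 16 reads and 2.57 RPKM at 4 h on 3 reads. It had the largest fold of the 5, at 4.40, with the widest interval, 1.26 to 23.6. IFT80 was also the 1 contig of the 5 at 4-fold or more, a size that 10.7% of listed contigs reached in the higher direction. These were 25 of the 134 contigs in the higher list. The Poisson intervals of its levels overlapped, at 6.46 to 18.4 RPKM at 8 h and 0.530 to 7.51 RPKM at 4 h.

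**Figure D1:**
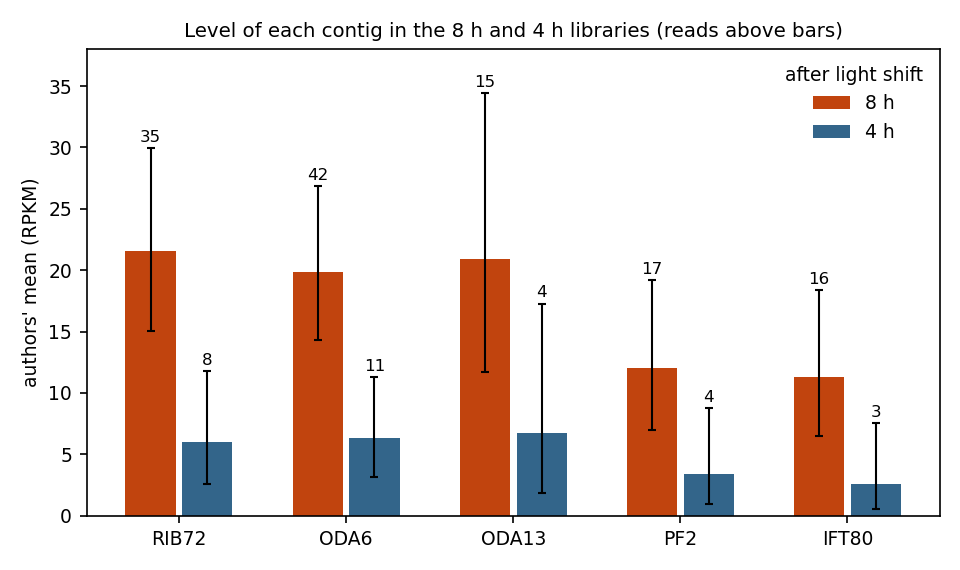
Authors' mean level (RPKM, linear axis) of each contig in the 8 h library (left bar) and the 4 h library (right bar), with 95% exact Poisson intervals and the number of reads above each bar. All 5 stood higher at 8 h, on 15 to 42 reads against 3 to 11 at 4 h, and the intervals of RIB72 and ODA6 did not overlap between the times.

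The interval of the fold lay above 1 for 4 of the 5 contigs, all but ODA13, against 28.6% of all listed contigs being higher with such an interval, or 67 of the 134 in the higher list. These folds turn on a handful of reads at 4 h. With 1 more read there the fold of IFT80 would have been 3.30 and with 1 fewer 6.60, while that of ODA6 would have been 2.89 and 3.46. Over the 5 contigs such a change of 1 read gave folds from 2.47 to 6.60.

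In the authors' deposited table the p-values were 0.00553 for RIB72, 0.0108 for ODA13, 0.0121 for ODA6, 0.0320 for IFT80 and 0.0406 for PF2. The false discovery rate in the authors' deposited table ran from 0.0552 for RIB72 to 0.220 for PF2. None of the 5 was under 0.05 there, against 18.4% of all listed contigs being higher with a rate under 0.05. The latter were 43 of the 134 contigs in the higher list. For these contigs the p-values in the authors' deposited table equal, within 0.0186%, those of a Wald test that treats RPKM as a Poisson count. That form does not use the reads behind a level: ODA13, on 19 reads over both libraries, has a smaller p in the authors' deposited table than ODA6, on 53. By the same form 1 more read at 4 h would have put IFT80 and PF2 past 0.05, a limit all 5 met as deposited. RIB72, ODA6 and ODA13 would have stayed under it.

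Between contigs, the order of levels at 8 h was RIB72, ODA13, ODA6, PF2 and IFT80. The ribbon and outer arm contigs lay between 19.9 and 21.5 RPKM, and the regulatory complex and transport contigs at 12.0 and 11.3 RPKM. No neighbours in this order differed beyond counting error. Of the 10 pairs, the interval of the ratio of levels at 8 h lay off 1 for RIB72 over IFT80 alone, at 1.91 (1.03 to 3.69), with no correction for the number of pairs. At 4 h the order was ODA13, ODA6, RIB72, PF2 and IFT80, and all 10 intervals held 1, with RIB72 at 2.32 times IFT80 (0.557 to 13.6).

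The folds of the 5 contigs could not be told apart at this depth. The interval of the ratio of folds held 1 in all 10 pairs. The widest gap, ODA13 against IFT80, was a ratio of 0.703, with an interval of 0.0887 to 4.98 that also holds large differences in either direction.

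**Figure D2:**
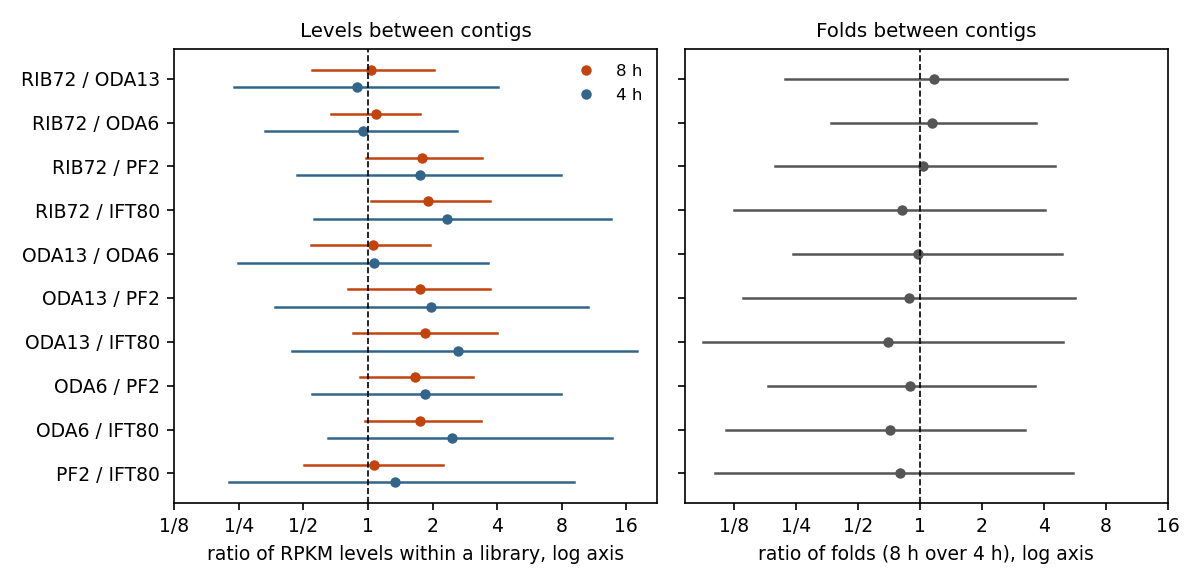
Ratios between each of the 10 pairs of contigs on log axes: left, RPKM of the first over the second within the 8 h and the 4 h library, and right, the fold of the first over that of the second. Bars are 95% exact intervals, and only that of RIB72 over IFT80 at 8 h, from 1.03 to 3.69, lies off the dashed line at equal values.

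Features that the choice by name did not use are given here beside the same over all listed contigs, as a description with no test. All 5 were the only transcript assembled at their locus, as were 133 of the 234 listed contigs (56.8%). All 5 had whole raw read totals, so no read was split with another contig, against 161 of 234 (68.8%). Their median length was 2100 bases, against 1094.5 bases over all listed contigs. The E value of the best hit was written as 0 for 4 of the 5, all but ODA13 at 2e-58, and for 20 of 234 (8.55%). None of these features was particular to the 5. Of the 11 listed contigs with an FAP name, 10 were the only transcript at their locus and 10 had whole raw totals. The median length of these 11 was 1298 bases, and 1, FAP189 at 2986 bases, had an E value of 0. Kinesin 5, also left out by the rule, had 2956 bases and an E value of 0. ODA13, at 1066 bases, was shorter than the median over all listed contigs. Level and fold, given next, are values behind the authors' listing itself. The RPKM of the 5 contigs at 8 h was not high among the listed contigs. Its median was 19.9, against 18.2 over all 234 and 23.2 over the higher list. By fold they stood at ranks 19 (IFT80), 29 (RIB72), 34 (PF2), 44 (ODA6) and 48 (ODA13) of the 134 in that list.

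Among the other listed contigs for flagella and the cytoskeleton, 12 of 14 were higher at 8 h, against 57.3% of all listed contigs. The 14 were found by a wider search of names and descriptions, and their median fold was 3.23 with the lower ones included. Over the 12 higher ones it was 3.63, and over the 11 with an FAP name 3.96, beside 3.51 for the 5 contigs. The higher ones were 11 with an FAP name (flagellar associated proteins, found by proteomics of isolated flagella in Chlamydomonas) and a microtubule-associated protein 65-8. The interval of the fold lay above 1 for 8 of the 12, and for 67 of the 134 contigs of the higher list. FAP115, FAP81 and FAP236 had the largest folds, at 6.60, 6.60 and 4.95, on 16, 16 and 12 reads at 8 h and 2 reads each at 4 h. FAP174, FAP203 and FAP276 had the smallest, at 2.14, 2.68 and 3.02, with intervals that reached below 1. The summed level of the 11 FAP contigs was 246 RPKM at 8 h and 73.1 RPKM at 4 h, a ratio of 3.36, beside 3.42 for the 5 contigs described above.

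FAP32 is the 1 listed contig whose description holds the word intraflagellar. It had 15.1 RPKM at 8 h on 12 reads and 4.58 RPKM at 4 h on 3 reads, 3.30-fold higher (0.890 to 18.2), so its interval reached equal levels where that of IFT80 did not. The difference between FAP32 and IFT80 was not tested. Both rested on 3 reads at 4 h.

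Of the 14 contigs 2 were listed as lower at 8 h, as were 42.7% of all listed contigs. Kinesin 5, a motor of a family that pushes spindle poles apart in mitosis, had 13.05 RPKM at 8 h on 26 reads and 29.2 RPKM at 4 h on 48 reads. It was 2.24-fold lower (1.36 to 3.76), and 23.5% of listed contigs were lower with an interval clear of equal levels. MOT41, described as a hypothetical protein, had 3.78 RPKM at 8 h and 13.1 RPKM at 4 h on 2.91 and 8.31 reads. It was 3.47-fold lower with an interval of 0.776 to 18.9 that reached equal levels.

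**Figure D3:**
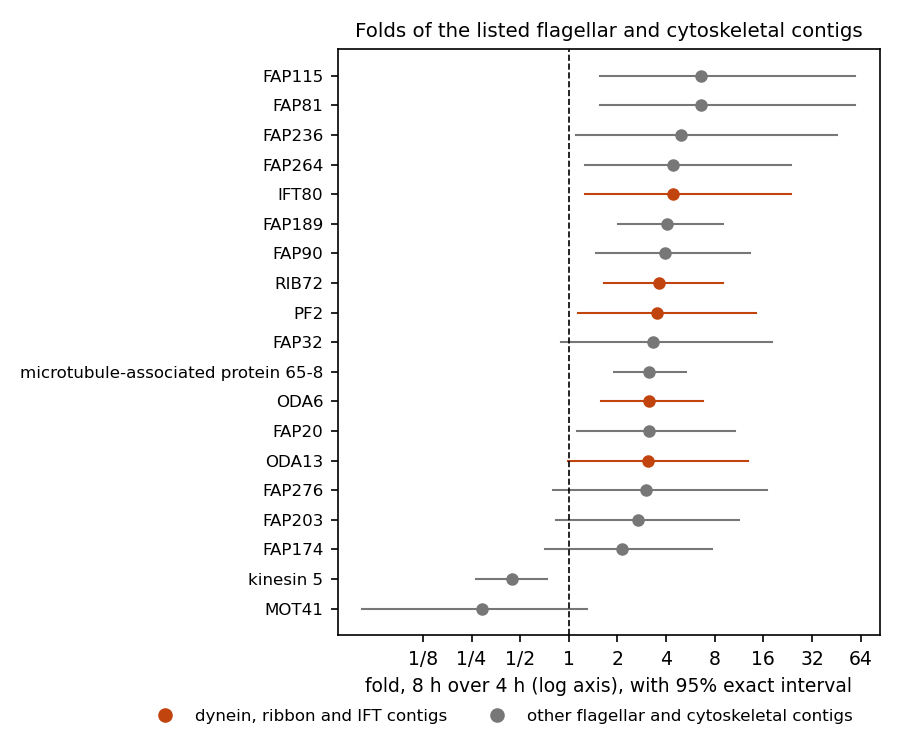
Fold, 8 h over 4 h, on a log axis for the 5 contigs (orange) and the 14 other listed flagellar and cytoskeletal contigs (grey), with 95% exact intervals and a dashed line at equal levels. The 5 contigs lie between 3.09 and 4.40, inside the range of the FAP contigs, 2.14 to 6.60, and kinesin 5 and MOT41 lie below 1.

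The listed contigs closest in fold to the 5, taken as the nearest pair for each, were 10 in number, and 3 of them belonged to the wider flagellar and cytoskeletal search, which held 12 of the 129 other contigs in the higher list (9.30%). Likeness here is the difference in log2 fold over 2 libraries, so it ranks a single number per contig. FAP264 had the same reads as IFT80, 16 at 8 h and 3 at 4 h, and therefore the same fold of 4.40.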

How the data were processed

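Per the labels' protocols, a TruSeq kit gave stranded mRNA libraries. Partek was used, per the submitters' processing notes. The sources used here name no aligner, assembler or reference. Gene names are those of the best Chlamydomonas reinhardtii hit, per the file headers. The authors' deposited means are RPKM. The authors' deposited table also holds their ratio, its natural log, a fold change written as a signed score in the lower list, p-values, and raw estimated counts, which include libraries beyond the labelled ones.

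The reads of each library follow from the scaling between RPKM, length and the highest raw count of a contig, which was constant within 0.00101% in the higher list. The reads of the 5 contigs came out whole within 0.001. Folds have Clopper-Pearson intervals, from the share of a contig's reads that lay in the 8 h library, levels have exact Poisson intervals, and ratios of folds have intervals of the conditional odds ratio. Read recovery was tested on simulated data with whole reads only, in which a labelled library always held the highest count. Fractional totals and contigs with their highest count in a further library were not covered by it. Every contig found by the rule was named, with the 3 largest and 3 smallest folds among the other flagellar contigs that were higher and every lower one. FAP32 and FAP264 were named after their values were seen. Contigs and word lists were chosen with earlier results of these data known. Alternatives were pseudocounts of 1 and 0.1 RPKM, scaling to listed reads, limits of 4-fold, 10 reads, an E value of 1e-20 and an FDR of 0.001, repeated hits collapsed, fractional totals left out and the left-out contigs added. Added after seeing the data were changes of 1 read at 4 h, an FDR of 0.05 and the interval of the fold. No sequence was in the files. The tools were scipy 1.17.1, pandas 2.3.3 and numpy 2.4.6 under Python 3.11.15, with matplotlib 3.10.9 for figures.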

Additional observations from a re-analysis of the deposited data

Results flagged for a closer look

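ODA6 and RIB72 had reads in a library that is neither the 8 h nor the 4 h one, more than the 3 that a count of 0 allows. The authors' raw totals cover further libraries, and the share of each was solved for from the summed raw reads and the summed RPKM of each contig. ODA6 had 14 reads there, or 24.9 RPKM (exact Poisson interval 13.6 to 41.9), beside 19.9 RPKM at 8 h and 6.30 RPKM at 4 h. RIB72 had 9 reads there, or 20.9 RPKM (9.55 to 39.6), beside 21.5 RPKM at 8 h and 5.97 RPKM at 4 h. The labels used here do not say what that library is, so these values are set side by side as a description and no difference is drawn from them.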

How the results depend on the processing

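Each of the 5 folds was recomputed under 5 alternatives, and all 25 values lay inside the interval of the reported fold and above 1. A pseudocount on both levels cannot turn a fold round, and scaling only divided each fold by 1.03. A change of 1 read was also too small to do so. This outcome was thus set beforehand and adds no support. Pseudocounts and scaling to the listed reads gave folds from 2.82 to 4.27. Of the 5 higher contigs, 0 were left at an authors' FDR under 0.001 and 0 at one under 0.05, so medians and sums under those limits had no value, and 1 was left at 4-fold or more. The count was 17 with the FAP, kinesin and microtubule-associated contigs added, among which kinesin 5 was lower. Of the 12 other flagellar and cytoskeletal contigs that were higher, 0 were left at an FDR under 0.001, 6 at one under 0.05 and 5 at 4-fold or more. Of the 134 contigs in the higher list, the same limits left 5, 43 and 25. These counts fell through the tighter limits, which drop contigs and cannot change a direction. The median log2 fold of the 5 contigs, 1.81 as reported, ran from 1.56 with 1 RPKM added to 2.14 at 4-fold or more. No paired analysis was possible because each time had 1 library. Depth limits all of this: 3 to 11 reads per contig at 4 h.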

Other observations

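The raw totals of the listed contigs can be split over 2 further libraries, of 241494 and 178822 reads by their RPKM scaling. For all 161 contigs with whole raw totals the reads in both came out whole within 0.05 reads. In 3 contigs the highest single library was neither labelled one, and there the deposited maximum matched the reads solved for the library of 178822 reads, within 0.0141%. This split was made after the values were seen, and the labels used here place neither library in a group.

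In the library of 241494 reads the 5 contigs for dynein, ribbon and transport had 2 reads in all, both of RIB72, or 0.828 per 100000 (exact Poisson interval 0.1003 to 2.99). ODA6, ODA13, PF2 and IFT80 had 0 reads there, which allows up to 3.96 RPKM for ODA6, 11.7 for ODA13, 5.92 for PF2 and 5.92 for IFT80 at 3 reads. Their exact Poisson intervals reached further, to 4.87 RPKM for ODA6, 14.3 for ODA13, 7.27 for PF2 and 7.28 for IFT80. In the library of 178822 reads the 5 contigs had 28 reads, or 15.7 per 100000 (10.4 to 22.6). Besides ODA6 and RIB72, PF2 had 3 reads and IFT80 2. ODA13 had 0, which allows up to 15.7 RPKM at 3 reads, and its exact Poisson interval reached 19.4 RPKM. The same contigs stood at 18.5 per 100000 at 8 h (15.4 to 22.1) and 5.40 at 4 h (3.64 to 7.70).

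All 134 contigs of the higher list held 61.6 reads per 100000 in the library of 241494 reads and 200.0 in that of 178822 reads, beside 535 at 8 h and 198 at 4 h. The 11 FAP contigs held 2.07 and 14.0 per 100000 in the further libraries, beside 29.9 at 8 h and 7.91 at 4 h.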
